A study of Mus musculus with 18 samples.

Results

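The regions described here are 409 tiles of 1 kb, of 154801 autosomal tiles measured (0.264%), in which cells with DNMT1 W465A/W796A had about the methylation of cells with WT DNMT1 while cells with W465A had lost most of it. The assay was enhanced reduced representation bisulfite sequencing (eRRBS) of CpGs, which reads CpG-rich restriction fragments after unmethylated cytosine has been converted. A tile was measured where at least 3 CpGs had 5 or more reads in every library, and its pooled level in a group is the sum of methylated reads over the sum of all reads of the 3 libraries. Members had a pooled level of 60% or more in WT, 25% or less in W465A, and a level in W465A/W796A that was no more than 5 points below WT. Of 23471 tiles past the WT and W465A limits, 1.74% met the third limit. The other 23062, called not restored below, lay more than 5 points below WT in W465A/W796A.

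The libraries come from mouse embryonic stem cells in which Dnmt1 is knocked out, so that all groups lack the endogenous enzyme. Each group stably expresses DNMT1 from the puromycin-selectable vector pPyCAGIP: WT, W796A, W465A, W464A/W465A, W465A/W796A or W464A/W465A/W796A, with 3 biological replicates each and 18 libraries in all. Several stable lines were made per group, and nothing says that 3 replicates stand for 3 lines, so p-values measure the spread between these libraries. Empty-vector cells, which the labels mention, were not analysed here. Only methylation was measured, so the cell type label could not be set against expression of its markers. CpG calls per library ranged from 59776439 to 138978763, both extremes being WT libraries (replicates 3 and 2). PCR duplicates cannot be told from molecules in these counts.

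DNMT1 copies CpG methylation onto the new DNA strand after replication. It is brought to newly replicated, hemimethylated DNA together with UHRF1, and its own histone-binding domains take part in placing it on chromatin. W464A and W465A lie in the replication foci targeting sequence (RFTS) domain, which binds the tail of histone H3. W796A lies in the first of the pair of bromo-adjacent homology (BAH) domains, which is known as a reader of methylated histone H4. The comparison of W465A with W465A/W796A asks how loss of the BAH contact bears on cells whose RFTS contact is already mutated.

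The stretches below show what the measured DNA of the members looks like. They are windows of 150 bases from 8 of the tiles described further on, read from the plus strand of GRCm38, with no repeat-masked base and no annotated UTR, and placed to hold as many measured CpGs as possible. Capitals mark the CpGs that entered the levels.
Itgad promoter tile, chr7:128154226-128154375: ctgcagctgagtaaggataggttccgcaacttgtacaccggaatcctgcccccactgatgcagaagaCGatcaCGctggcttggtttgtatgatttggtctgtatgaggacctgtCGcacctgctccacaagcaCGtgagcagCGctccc
Kdm2b promoter tile, chr5:122888327-122888476: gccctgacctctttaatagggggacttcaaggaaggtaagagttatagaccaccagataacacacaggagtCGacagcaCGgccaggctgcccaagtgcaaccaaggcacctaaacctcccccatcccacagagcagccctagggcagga
Sall4 exon tile, chr2:168754427-168754576: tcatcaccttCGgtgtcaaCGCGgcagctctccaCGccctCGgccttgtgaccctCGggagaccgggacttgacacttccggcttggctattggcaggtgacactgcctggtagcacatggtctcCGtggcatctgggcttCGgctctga
Dsp exon tile, chr13:38195142-38195291: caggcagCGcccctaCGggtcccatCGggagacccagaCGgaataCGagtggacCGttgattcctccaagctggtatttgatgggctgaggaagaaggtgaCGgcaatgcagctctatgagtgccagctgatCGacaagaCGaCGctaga
Tln1 exon tile, chr4:43533232-43533381: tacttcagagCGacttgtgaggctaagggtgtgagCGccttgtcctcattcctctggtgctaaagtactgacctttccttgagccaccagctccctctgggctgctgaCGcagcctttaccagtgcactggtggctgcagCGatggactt
Msi1 intron tile, chr5:115433272-115433421: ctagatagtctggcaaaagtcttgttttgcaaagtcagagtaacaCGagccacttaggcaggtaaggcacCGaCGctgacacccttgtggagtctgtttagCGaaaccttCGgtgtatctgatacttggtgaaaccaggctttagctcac
Cit intron tile, chr5:115869134-115869283: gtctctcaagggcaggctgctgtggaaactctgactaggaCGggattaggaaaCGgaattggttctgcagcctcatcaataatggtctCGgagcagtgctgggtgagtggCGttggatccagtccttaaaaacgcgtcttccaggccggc
Intergenic tile near Wwp2, chr8:107561286-107561435: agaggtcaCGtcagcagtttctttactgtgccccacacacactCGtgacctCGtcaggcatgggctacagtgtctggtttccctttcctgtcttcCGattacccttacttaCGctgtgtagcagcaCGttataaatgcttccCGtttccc

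The measured CpGs of a member are few and lie close together. In the Dsp window 10 CpGs were measured, and in the Kdm2b window 2. Over the members the median number of measured CpGs was 4, and 44.7% had exactly 3. The median distance from the first to the last measured CpG was 77 bp, against 110 bp in the not restored tiles and 130 bp in all autosomal tiles. CpGs this close are often read on the same fragment, so that they are not independent measurements.

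The levels that chose the members are given as a description, with no test. Averaged over the 409 tiles, the level in WT was 52.3%, 76.4% and 62.5% in replicates 1, 2 and 3. In W465A it was 29.7%, 13.5% and 14.7%. In W465A/W796A it was 72.1%, 58.2% and 62.6%. The WT and W465A/W796A libraries overlapped and both lay above all W465A libraries. WT replicate 1 was lower than every W465A/W796A library, and WT replicate 2 higher. For WT, W465A and W465A/W796A in this order the group means were 63.8% ± 12.1, 19.3% ± 9.03 and 64.3% ± 7.11 (SD, n = 3 each). In the not restored tiles the same means were 71.3% ± 10.7, 19.11% ± 6.55 and 47.7% ± 5.06 (SD, n = 3 each).

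**Figure D1:**
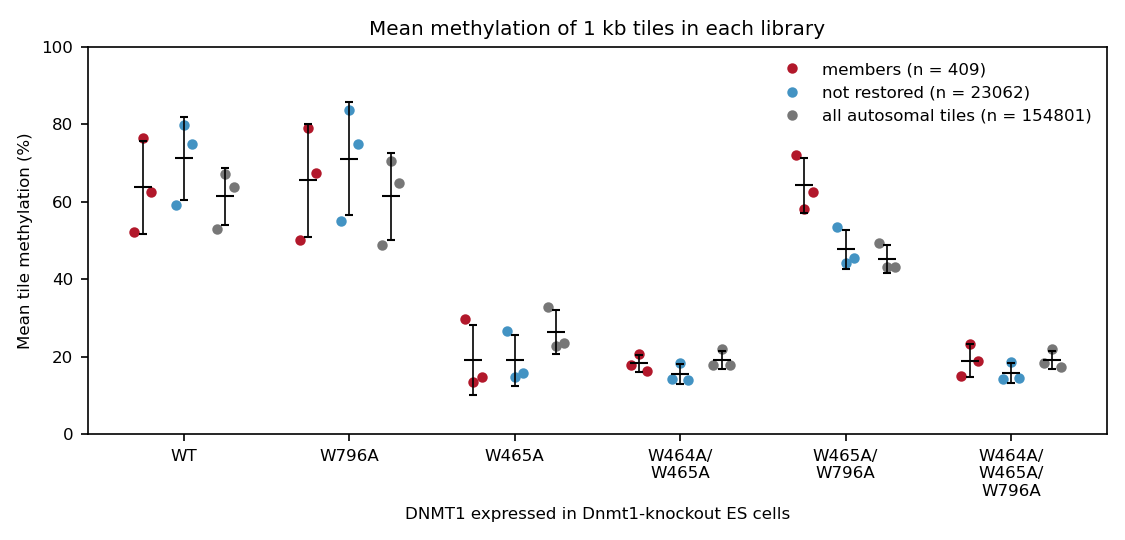
Mean methylation (%) of the tiles in each of the 18 libraries (points), with the mean and SD of the 3 libraries of a group (black), for the members, the not restored tiles and all autosomal tiles. In W465A/W796A the members averaged 64.3% and the not restored tiles 47.7%, a gap that the choice of members fixes.

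The spread between libraries within a member was wide. The median range over the 3 WT libraries was 31.1 points in the members and 24.4 points in the not restored tiles, and over the 3 W465A/W796A libraries 22.4 and 18.8 points. All 3 WT libraries were at 60% or more in 65 of 409 members (15.9%, against 44.8% of the not restored and 52.5% of all autosomal tiles). All 3 W465A/W796A libraries were so in 94 (23.0%, against 2.39% and 13.7%). All 3 W465A libraries were at 25% or less in 99 (24.2%, against 33.7% and 30.5%). In 347 members every WT and every W465A/W796A library lay above every W465A library (84.8%, against 77.1% of the not restored and 49.3% of all autosomal tiles). WT replicate 1 was the lowest WT library in 268 members (65.5%, against 80.9% of the not restored and 72.4% of all autosomal tiles). Replicate 3 was the lowest in 122 (29.8%, against 14.2% and 17.0%).

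The members lie in the tail of 1 broad distribution. Their pooled WT level had a median of 65.9%, with 177 of 409 between 60% and 65% and 5 at 80% or more. Of the tiles past both limits, 4.69% of those with a WT level of 60% to 65% were members, and 0.0939% of those at 80% or more. The third limit is itself set from the WT level, so this gradient is not independent of the rule and only describes the choice. The W465A level, which the third limit does not use, showed no such gradient. The share of members lay between 1.67% and 1.80% in its 4 classes. The level in W465A/W796A was at or above that in WT in 130 members. At the WT limit, a tile in an intron of Pla2r1, just outside, had 59.9% in WT. At the W465A limit, an intron of Ddhd2 had 25% and the Arl14epl promoter, just outside, 25.1%. At the limit on the difference, an intron of Bin2 differed from WT by -4.99 points (58.2% against 63.2%) and an intron of Rpn2, just outside, by -5.003 points (68.1% against 73.1%).

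Members were read less deeply than the tiles they are compared with. The least covered library had a median of 24 reads in the members, 30 in the not restored tiles and 33 in all autosomal tiles. Members made up 2.22% of the tiles past both limits with 15 to 19 reads in the least covered library, 2.08% with 20 to 29, 1.51% with 30 to 49, 1.23% with 50 to 99 and 1.01% with 100 or more. Each library held 50 or more reads in 64 members. The part of depth in the membership was not tested.

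**Figure D2:**
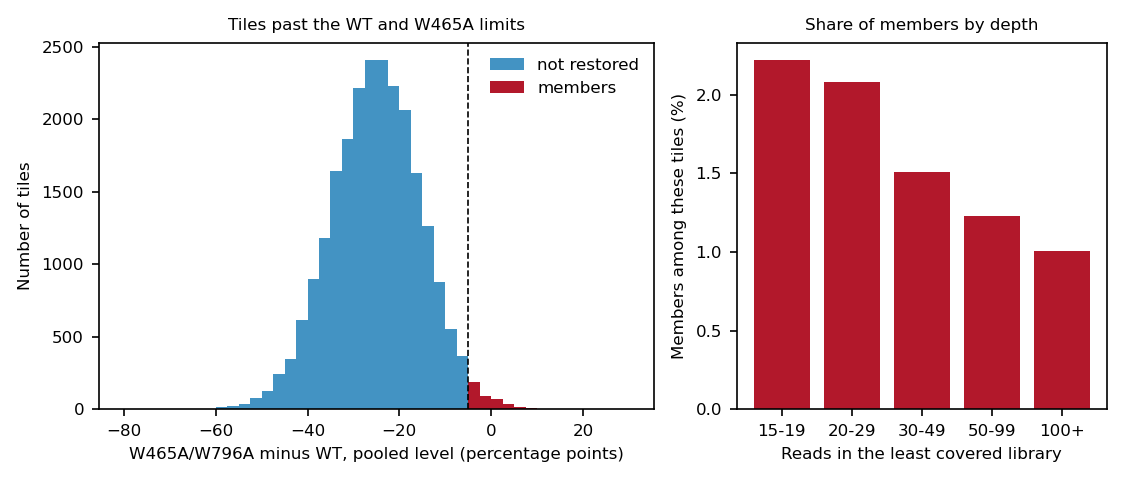
Left, the number of the 23471 tiles past the WT and W465A limits by the difference in pooled level of W465A/W796A and WT (percentage points), with the limit at 5 points below WT dashed. Right, the share of members (%) by the read count of the least covered library, which goes from 2.22% to 1.01%.

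Tiles chosen by the same limits on fewer libraries can be read in libraries that did not choose them. The 3 limits were applied to 2 libraries each of WT, W465A and W465A/W796A, and the level was then read in the library left out of each. The shared number only names the libraries left out together. Without replicate 1, 306 tiles were chosen, and in replicate 1 they had 62.7% in WT and 62.7% in W465A/W796A, a mean difference of -0.0181 points. Without replicate 2, 1252 tiles were chosen, and in replicate 2 they had 82.2% in WT and 50.2% in W465A/W796A, a mean difference of -32.0 points. Without replicate 3, 671 tiles were chosen, with 72.4% and 51.4% in replicate 3 and a mean difference of -21.0 points. The left-out W465A level of the 3 sets was 38% in replicate 1, 18.8% in replicate 2 and 19.95% in replicate 3, so that in replicate 1, where WT was met, the W465A level lay past the 25% limit. In the libraries that chose them, the same 3 sets had mean differences of -1.13, 0.0415 and -0.501 points. In these sets the level of the left-out WT library was therefore met in 1 of the 3 left-out pairs and not in the other 2. The name "restored" holds for the pooled values only.

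These left-out values need the background of their own libraries. Over all tiles past the WT and W465A limits in the same 2 libraries, the left-out W465A/W796A library differed from the left-out WT library by -3.78 points in replicate 1, -34.3 points in replicate 2 and -26.6 points in replicate 3. Replicate 1 thus differed little from WT in all such tiles. A left-out W465A/W796A level no more than 5 points below WT was found in 59.5%, 3.43% and 20.9% of the chosen tiles in replicates 1, 2 and 3. In all tiles past the WT and W465A limits the shares were 52.6%, 2.19% and 13.3%. The chosen tiles had levels in the left-out W465A/W796A library of 62.7%, 50.2% and 51.4%, against 55.7%, 45.9% and 45.5% in all tiles past the 2 limits. They were higher in each of these 3 libraries. The same held in the left-out WT libraries (62.7%, 82.2% and 72.4%, against 59.5%, 80.3% and 72.1%). It also held in the left-out W465A libraries (38%, 18.8% and 19.95%, against 32.9%, 18.4% and 18.3%). In the choosing libraries, all tiles past the 2 limits had mean differences from WT of -31.3, -21.3 and -23.9 points. The chosen tiles had -1.13, 0.0415 and -0.501 points there.

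**Figure D3:**
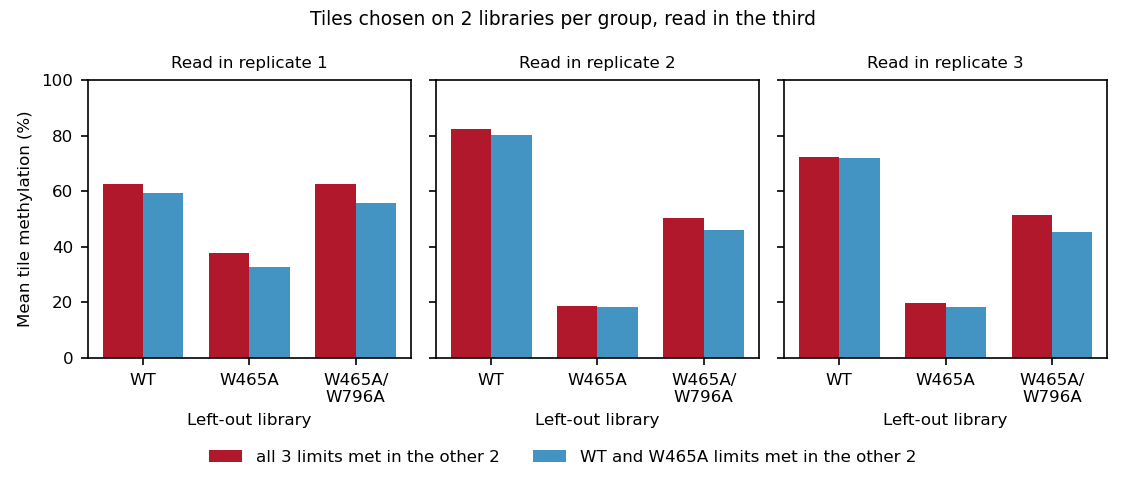
Mean methylation (%) in the left-out WT, W465A and W465A/W796A libraries of replicates 1, 2 and 3, for tiles that met all 3 limits in the other 2 libraries of each group (red) and for tiles that met the WT and W465A limits there (blue). In replicate 2 the chosen tiles had 82.2% in WT and 50.2% in W465A/W796A.

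The count of members also rests on single libraries. Dropping WT replicate 1 left 216 and dropping WT replicate 2 gave 907. Dropping W465A replicate 1 gave 755, and dropping W465A/W796A replicates 2 or 3 gave 1056 or 801. Of the 409 members, 16 were chosen in all 9 settings that leave out 1 of these libraries, and the median member in 6 of the 9. These 16 were looked up after the counts were seen. Their WT libraries averaged between 63.7% and 71.7% and their W465A/W796A libraries between 69.3% and 73.7%.

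The most deeply read of the 16 lies in an exon of Tln1, which encodes talin, the link between integrins and actin (chromosome 4, 43533001 to 43534000). It had 68.7%, 72.1% and 62.7% in the WT replicates, 29%, 15.5% and 20% in W465A, and 74.6%, 70.1% and 71.3% in W465A/W796A, from 57 to 171 reads per library. The W465A/W796A libraries overlapped those of WT, with all W465A libraries far below. Another is an intron of Gab1, an adaptor of receptor tyrosine kinases (chromosome 8, 80820001 to 80821000), with 78.3%, 62.8% and 69.7% in WT, 29.5%, 17.2% and 16.1% in W465A and 71.0%, 77.3% and 71.7% in W465A/W796A, from 29 to 74 reads. Both had high W796A libraries (72.6%, 88.0% and 74.2% at Tln1, and 68.4%, 76.9% and 78.4% at Gab1).

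W796A, W464A/W465A and W464A/W465A/W796A had no part in choosing the members. In W796A the members averaged 50.1%, 79.2% and 67.4%, in W464A/W465A 17.8%, 20.6% and 16.4%, and in W464A/W465A/W796A 14.9%, 23.3% and 18.9%. The group means were 65.6% ± 14.6, 18.3% ± 2.15 and 19.03% ± 4.18 (SD, n = 3 each). The W796A libraries lay above all libraries of both groups that carry W464A/W465A. In the not restored tiles the means were 71.2% ± 14.7, 15.6% ± 2.499 and 15.8% ± 2.53. Members thus had a lower mean in W796A and higher means in both other groups than the not restored tiles, with overlapping ranges of libraries. Their mean in WT, which the rule used, was lower too (63.8% against 71.3%). The median difference of W796A from WT was 0.35 points in the members and -1.72 points in the not restored tiles. These differences between sets of tiles were not tested.

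Each tile was tested between these groups with a quasi-binomial model over all tiles and all 18 libraries. With W464A/W465A, 390 of 409 members were lower than with W796A at an adjusted p under 0.05 and at least 10 points, 95.4% of them, where 83.8% of all 155660 tiles were called. With W464A/W465A/W796A 386 members were lower than with W796A (94.4%, against 83.9% of all tiles). None was higher in either comparison, and both share the W796A libraries. The median difference in the members was -48.7 points for W464A/W465A and -48.8 for W464A/W465A/W796A, close to the median over all tiles of -48.7 and -49.5 points. In the not restored tiles the medians were -56.7 and -57.1 points, with 99.2% and 99.3% of tiles called. The shares of members called lie above those of all tiles, which include tiles of low methylation (10% of autosomal tiles had 2.67% or less in W796A). All W464A/W465A libraries lay below all W796A libraries in 379 members (92.7%, background 87.0%), and all triple mutant libraries in 368 (90%, background 86.8%).

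Adding W796A to W464A/W465A gave no call. Of 409 members 0 differed between W464A/W465A/W796A and W464A/W465A by the quasi-binomial model (background 0.0% in each direction), and limma called 0. By the quasi-binomial model 4 of 409 members and 210 of 23062 not restored tiles had an unadjusted p under 0.05. This was not counted over all tiles, so it is not read as a trait of the members. The model shared 1 overdispersion per tile over all 6 groups. The median range between libraries in the members was 31.1 points in WT and 30.6 in W796A. In W464A/W465A it was 12.2 points and in the triple mutant 14.0. The absence of calls thus does not show equal levels. The median difference of the triple mutant from W464A/W465A was 0.09 points, with quartiles of -4.62 and 4.44 points. It was -0.07 points over all tiles and 0 points in the not restored tiles. In 22 members all libraries of the triple mutant were higher (5.38%, background 4.55%) and in 16 all were lower (3.91%, background 4.52%). So the tiles chosen for a high level with W796A in the W465A background had about the same low level with and without W796A in the W464A/W465A background. This was no trait of the members. All autosomal tiles averaged 19.3% in W464A/W465A and 19.2% in the triple mutant. Whether the effect of W796A differed between these backgrounds cannot be tested at tiles chosen on one of them.

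Members that overlap promoters were few, 13 of 409 (3.18%), about the share in the not restored tiles (3.08%) and below that in all autosomal tiles (13.8%). A promoter here is 500 bp either side of the annotated start of a protein-coding transcript, which includes alternative starts inside genes. The 8 promoter, 4 exon, 5 intron and 4 intergenic tiles named next had all WT and all W465A/W796A libraries above all W465A libraries. Among such members outside chromosome 18, they are those of their class with the most reads in their least covered library. Tiles named for their level in the triple mutant or for a gene list did not have to meet this order of libraries.

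The deepest promoter tile belongs to Itgad, an integrin subunit of white blood cells (chromosome 7, 128154001 to 128155000). Its 11 CpGs had 40.0%, 84.6% and 89.5% in WT, 30.1%, 10.3% and 16.5% in W465A and 64.3%, 48.6% and 77.5% in W465A/W796A, from 76 to 351 reads per library. WT replicate 1 was the WT library nearest to W465A. In groups outside the rule it had 66.1%, 94.9% and 78.1% with W796A and 9.97%, 17.9% and 12.7% with the triple mutant, a difference called by the model (adjusted p 2.3e-05). The Kdm2b tile, at a start of the gene for a histone demethylase that binds CpG islands (chromosome 5, 122888001 to 122889000), had 51.5%, 75.6% and 77.8% in WT, 17.4%, 15.6% and 7.95% in W465A, and 76.7%, 48.1% and 67.6% in W465A/W796A. Replicates 1 and 2 thus stood in opposite order in WT and W465A/W796A. The Pola2 tile, at the gene of a subunit of DNA polymerase alpha with primase (chromosome 19, 5952001 to 5953000), had 54.3%, 85.3% and 75.6% in WT and 85.7%, 72.3% and 68.9% in W465A/W796A, against 30.8%, 9.52% and 16.3% in W465A.

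In all 8 promoter tiles replicate 1 was below replicate 2 in WT and above it in W465A/W796A. Srsf9, a splicing factor of the SR family (chromosome 5, 115330001 to 115331000), had 57.9%, 75% and 84.2% in WT and 90.4%, 74.4% and 66.7% in W465A/W796A. Catsperg2, a part of the sperm calcium channel CatSper (chromosome 7, 29727001 to 29728000), had 49.1%, 69.3% and 58.8% in WT and 71.4%, 28.6% and 53.6% in W465A/W796A. The other 3 promoter tiles by depth were those of Gm36210, Rusc2 and Laptm5, a lysosomal membrane protein of blood cells. Gm36210 had 45.2%, 71.8% and 53.1% in WT and 67.6%, 41.1% and 61.5% in W465A/W796A. Rusc2 had 50.9%, 70% and 61.4% in WT and 69.9%, 56.9% and 48.1% in W465A/W796A, and Laptm5 45.7%, 78.9% and 56.2% in WT and 75%, 46.8% and 50% in W465A/W796A. In the other groups all 8 promoter tiles had pooled levels between 7.95% and 22.4% with W464A/W465A or the triple mutant and between 56.3% and 80.9% with W796A.

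Exon tiles were the most deeply read members inside genes. The Sall4 tile, in the gene of a zinc finger factor of pluripotent cells (chromosome 2, 168754001 to 168755000), held 16 CpGs with 224 to 612 reads per library. It had 49.3%, 79.2% and 53.1% in WT, 41.4%, 10% and 10.5% in W465A and 68.3%, 46.4% and 66.0% in W465A/W796A. W465A replicate 1 was far above the other two and close to WT replicate 1. With W796A it had 33.3%, 70.3% and 56.2% and with W464A/W465A 11.7%, 16.6% and 8.38% (adjusted p 0.00104). The Dsp tile, in the gene of desmoplakin, a protein of desmosomes (chromosome 13, 38195001 to 38196000), held 24 CpGs, the most of any member. Its levels were 46.5%, 77.8% and 51.1% in WT, 34.1%, 23.7% and 13.0% in W465A and 68.7%, 49.5% and 66.1% in W465A/W796A. Here too replicate 2 was the highest WT library and the lowest W465A/W796A library.

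Exons of Snrnp70, a protein of a spliceosomal particle, and Sik1, a salt-inducible kinase, complete this class. Snrnp70 (chromosome 7, 45376001 to 45377000) had 49%, 86.1% and 45.8% in WT and 79.5%, 59.4% and 57.5% in W465A/W796A. Sik1 (chromosome 17, 31849001 to 31850000) had 64.1%, 75.6% and 63.5% in WT, 32.1%, 19.2% and 14.8% in W465A and 69.97%, 57.4% and 67.1% in W465A/W796A. All 3 WT libraries of the Sik1 tile were above 60%, unlike those of the other 3 exon tiles.

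Intron tiles gave the largest class, with 196 members. An intron of Cit, which encodes citron kinase of cell division (chromosome 5, 115869001 to 115870000), had 57.4%, 74.4% and 62.9% in WT, 37.9%, 17.9% and 10.99% in W465A and 71.1%, 55.4% and 69.3% in W465A/W796A. An intron of Ptk2, focal adhesion kinase (chromosome 15, 73408001 to 73409000), had 63.7%, 77.0% and 62.7% in WT, 24.3%, 16.4% and 17.3% in W465A and 76.7%, 52.9% and 76.5% in W465A/W796A. An intron of Prrc2b (chromosome 2, 32169001 to 32170000) had 69.2%, 72.0% and 67.6% in WT, the closest WT libraries of these 5, and 77.7%, 45.1% and 69.5% in W465A/W796A. W465A/W796A replicate 2 was the lowest library of its group in each of the 5 intron tiles.

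The other two were introns of Rapgef4, an exchange factor for Rap proteins that responds to cyclic AMP, and Msi1, an RNA-binding protein of neural progenitors. Rapgef4 (chromosome 2, 72020001 to 72021000) had 45.5%, 80.2% and 46.4% in WT and 78.8%, 43.8% and 60.5% in W465A/W796A. Msi1 (chromosome 5, 115433001 to 115434000) had 53.2%, 63.2% and 64.1% in WT and 65.8%, 46.0% and 48.9% in W465A/W796A, with 13.8%, 45.6% and 27.2% in the triple mutant. That is the third highest triple mutant level, 27.9% pooled, among the 64 members that had 50 or more reads throughout.

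Of the 4 intergenic tiles named by depth, 3 were largely repeat-masked. Left out by the order of their libraries were members near Tbl1xr1 and Cyp7b1, both intergenic and 100% repeat-masked. Their least covered libraries had 331 and 270 reads. The deepest member of all, with 469 to 1783 reads per library, lies 222510 bp from the nearest start, that of Gm30302, on chromosome 13 (50021001 to 50022000), and is 80.9% repeat-masked. It had 65.9%, 77.9% and 59.9% in WT, 32.1%, 7.34% and 8.62% in W465A and 70.7%, 62.2% and 68.0% in W465A/W796A. With the triple mutant it had 21.5%, 35.9% and 29.7%, all above the 7.42%, 18.6% and 8.56% of W464A/W465A, a difference that the model did not call. A tile 98.1% repeat-masked and 63822 bp from Alkal2 (chromosome 12, 30820001 to 30821000) had 61.9%, 78.5% and 60.6% in WT and 64.8%, 71.2% and 71.8% in W465A/W796A. Its W796A libraries were lower, at 35.2%, 69.9% and 29.9%, and its triple mutant libraries, at 15.8%, 18.9% and 15.9%, again lay above those of W464A/W465A, at 5.75%, 3.83% and 3.59%. Reads in repeats can come from near-identical copies elsewhere, which these counts cannot separate.

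A tile 899754 bp from 4921530L21Rik on chromosome 14 (94981001 to 94982000) and one 16488 bp from Wwp2 on chromosome 8 (107561001 to 107562000) were the other two, 63.7% and 20.3% repeat-masked. The first had 75.4%, 78.0% and 47.0% in WT and 67.1%, 63.6% and 63.4% in W465A/W796A, and the second 60.8%, 59.9% and 82.3% in WT and 76.1%, 61.2% and 54.5% in W465A/W796A. Among those 64 deeper members, the highest triple mutant level was 31.1%, in a tile 99.7% repeat-masked and 193494 bp from Adgra3. That tile was not called in either comparison with W796A (adjusted p 0.182 and 0.261). The lowest was 4.39%, in a tile 4517 bp from Pla2g10, with 1.43%, 4.41% and 9.09% in the 3 libraries, followed by the Gm36210 promoter at 7.95% and an intron of Sap30bp at 8.13%.

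**Figure D4:**
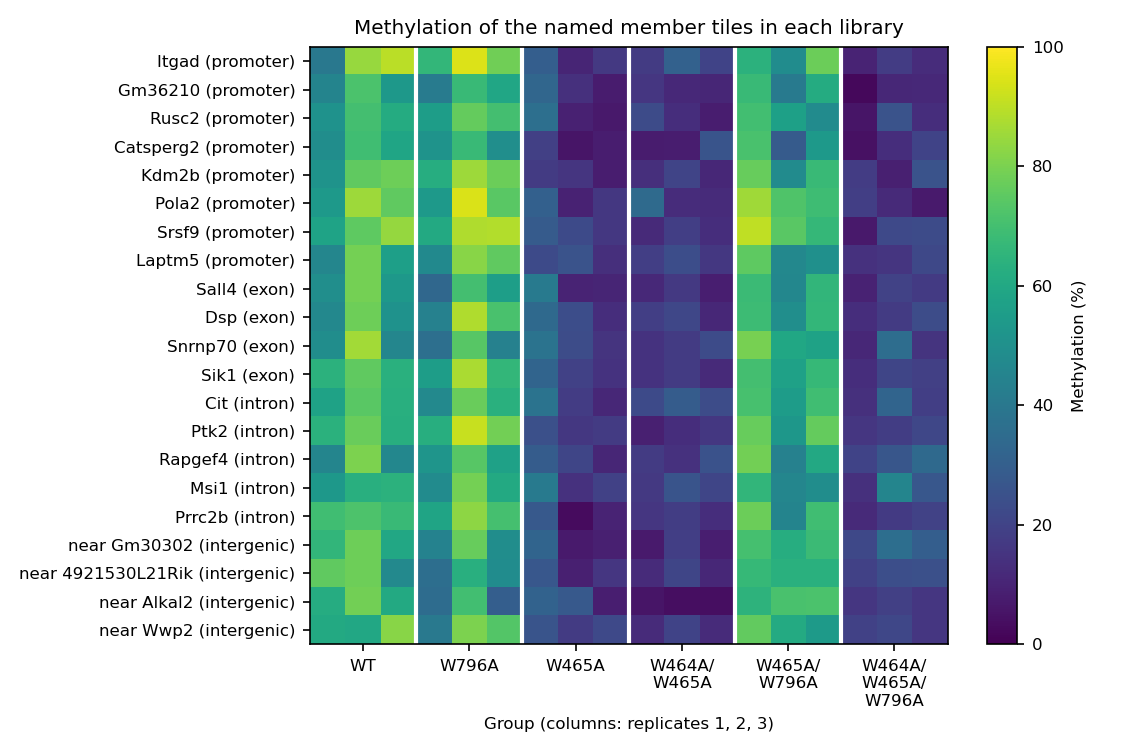
Methylation (%) of the 21 named member tiles (rows, with their position) in the 18 libraries (columns, replicates 1 to 3 within each group). WT, W796A and W465A/W796A are high and W465A, W464A/W465A and W464A/W465A/W796A low, and W465A/W796A replicate 2 is below 60% in most rows.

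Members lay inside genes more often than the not restored tiles. Of 409, 289 (70.7%) were in a protein-coding gene or at its promoter, against 55.5% of the not restored and 64.6% of all autosomal tiles. Introns held 47.9% of members and 38% of not restored tiles, exons 19.6% and 14.4%, and the space between genes 29.3% and 44.5%. The median distance to a transcription start was 15058 bp in the members, 18685 bp in the not restored tiles and 15610 bp in all tiles. These shares are a description, and the difference in depth and in CpG spacing given above goes with them.

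In sequence the members were close to the not restored tiles. The median GC content was 48.3% and 47.8%, the median number of reference CpGs per kb 16 and 15, and the median share of repeat-masked bases 20.3% and 19.6%. All measured CpGs were repeat-masked in 10.5% and 11.3%. No MspI site, CCGG, lay in 26.2% of members and 24.8% of not restored tiles. The median tile held 3 sites of BfaI, CTAG, and 4 of MseI, TTAA, in both sets. Each of these 3 letter runs reads the same on both strands.

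Members were spread over all 19 autosomes. Their share among tiles past the WT and W465A limits ranged from 0.910% on chromosome 19 to 2.41% on chromosome 18, with the largest number, 36, on chromosome 4. They seldom lay next to each other: 1 pair was adjacent and 6 pairs of neighbours lay within 10 kb. In 10 genes, of 283 with a member, there were 2 members each, and in none more. Among these was Aldh2, a mitochondrial aldehyde dehydrogenase, with 2 of its 4 tiles past both limits.

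Tiles near members and near not restored tiles were read with members left out. Not restored tiles stayed in both sets of neighbours, and the rule placed these more than 5 points below WT. The values are therefore a description. The 166 tiles 1 kb away, members left out, had a pooled level of 68.6% in WT, 25.6% in W465A and 52.7% in W465A/W796A, a mean difference of -15.8 points from WT. Tiles 1 kb from the not restored tiles had 62.9%, 23.4% and 45.0%, and -17.9 points. The mean gain of W465A/W796A over W465A was 27.2 points beside members and 21.6 beside not restored tiles. A level no more than 5 points below WT was found in 8.43% of the tiles beside members, in 14.2% of those beside not restored tiles and in 17.6% of all autosomal tiles. This share sets no minimum for WT, so tiles with little methylation in WT count in it too. Of all autosomal tiles 10% had 2.09% or less in WT. The order of this share did not follow distance. Near members it was also lower at 2 kb (20.6%, against 21.1% near not restored tiles) and at 5 kb (19.3% against 19.7%). It was higher at 3 kb (28.4% against 20.8%) and at 10 kb (27.2% against 20.1%). At 2 to 10 kb from members the mean difference from WT lay between -14.6 and -13.7 points. On average, W465A/W796A was thus below WT in the tiles beside members at each of these distances.

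**Figure D5:**
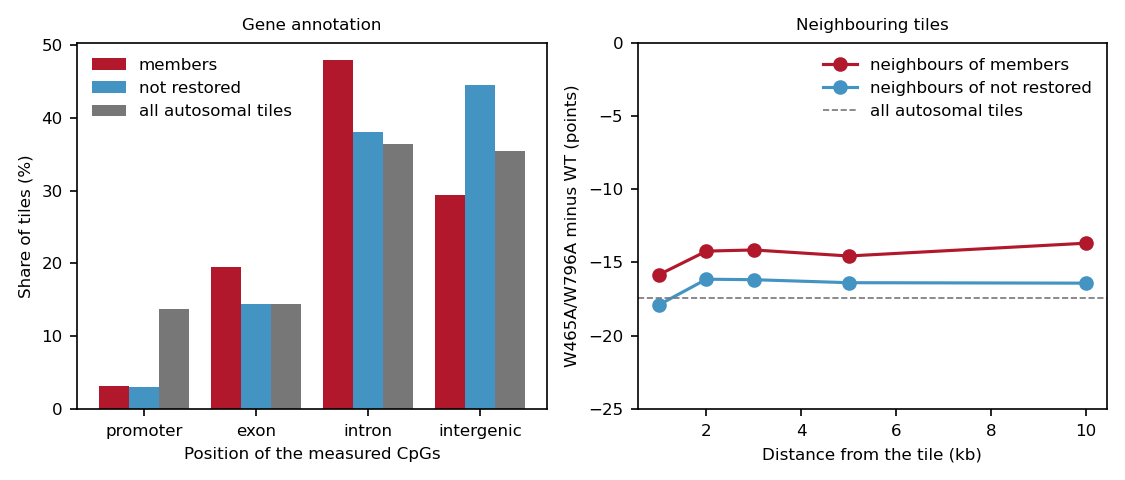
Left, the share (%) of members, not restored tiles and all autosomal tiles whose measured CpGs lie in a promoter, exon or intron of a protein-coding gene or between genes. Right, the mean difference of W465A/W796A and WT (points) in tiles 1, 2, 3, 5 and 10 kb away, with the mean of all autosomal tiles (-17.4 points) dashed.

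In 10 gene lists 7 held no member, and members are to be read against their share of 1.74% among all tiles past the WT and W465A limits. None of the tiles of germline, imprinted or trophoblast genes, of the enzymes of DNA methylation and heterochromatin, of olfactory and vomeronasal receptors, protocadherins or keratins was a member, although 10, 7, 3, 38, 42, 27 and 17 of them passed the WT and W465A limits. The pluripotency list had 1 member of 10 tiles past the limits, in an exon of Esrrb, a nuclear receptor of ES cells. It rests on 3 CpGs and as few as 15 reads, with 53.3%, 72.2% and 57.1% in WT, 6.06%, 0% and 9.52% in W465A, and 71.8%, 72.2% and 46.3% in W465A/W796A. Developmental regulators had 1 of 97, in an intron of Foxp1, with 40%, 77.8% and 46.3% in WT, 57.1%, 9.26% and 24.2% in W465A and 72.9%, 41.7% and 76.7% in W465A/W796A. There W465A replicate 1 lay above WT replicates 1 and 3 and above W465A/W796A replicate 2, so the groups overlapped. Zfp genes, most of them zinc finger genes, had 7 of 218 (3.21%, against the 1.74% of all such tiles): Zfp516, Zfp532, Zfp536, Zfp592, Zfp704, Zfp746 and Zfp839.

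The deepest of the Zfp tiles is in an exon of Zfp532, with 64.3%, 85.5% and 69.6% in WT, 31.4%, 12.8% and 8.18% in W465A and 77.6%, 57.3% and 78.7% in W465A/W796A. The Zfp592 intron had 28.4%, 89.8% and 73.9% in WT and 66.2%, 64.8% and 72.0% in W465A/W796A. The Zfp839 intron had 47.3%, 77.7% and 78.3% in WT and 76.2%, 54.4% and 59.9% in W465A/W796A. The Zfp516 exon had 50.4%, 68.6% and 57.1% in WT and 77.4%, 37.1% and 48.6% in W465A/W796A. The Zfp746 exon had 70.6%, 80.0% and 64.5% in WT and 69.5%, 70.8% and 90% in W465A/W796A. Its W465A libraries had 29.4%, 31.4% and 13.2%. It is the only one of the 7 Zfp tiles in which all WT and all W465A/W796A libraries were above 60%.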

How the data were processed

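For each of 21867550 CpGs the authors deposited raw counts, 1 of methylated and 1 of total reads in each library, without normalization. Builds mm10 and GRCm38 and the tools cutadapt 1.2.1, Bismark 0.18.1 and Bowtie 1.2 are named in the submitters' processing notes, and duplicate removal is not given in the sources used here. All 36 deposited count columns were used. The 1416764 autosomal CpGs that passed 5 reads throughout were all CG in GRCm38, so genes were taken from GENCODE M21. Positions are 1-based.

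Tiles of 1 kb from position 1 with at least 3 CpGs were summed. The model was a quasi-binomial logistic fit of 6 groups over 155660 tiles, X and Y included, with 12 residual degrees of freedom and overdispersion squeezed by the method of limma (prior 3.44 with 5.64 degrees of freedom), an F test and Benjamini-Hochberg adjustment over all tiles. Calls needed an adjusted p under 0.05 and 10 points. Python 3.11.15, scipy 1.17.1 and numpy 2.4.6 were used, and the model was tested on simulated data. Alternatives changed the limits, tile size, CpG and read minimum, way of averaging, libraries and test. Limma 3.58.1 in R 4.3.3, with 0.5 added to both counts, was an alternative. Members, gene lists and tests were chosen with earlier results of these data known.

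Named tiles had every WT and W465A/W796A library above every W465A library (331 members outside chromosome 18), and were the 8 promoter, 4 exon, 5 intron and 4 intergenic tiles with the most reads in their least covered library. Added were the 3 highest and 3 lowest in the triple mutant with at least 50 reads, the tiles nearest each limit (1 is not reported here), and members in the gene lists. Tiles chosen whichever library was left out were picked with their values in view. Sequence windows come from the RefSeq copy of GRCm38.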

Additional observations from a re-analysis of the deposited data

How the results depend on the processing

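The number of members, 409, changed with most choices. It was 75 with at least 10 reads per CpG, 195 with 5 kb tiles, 130 with 5 or more CpGs per tile, 130 with no margin below WT, 1324 with a margin of 10 points, 910 with the median of library levels and 64 with at least 50 reads per tile and library. It was 455 with 500 bp tiles, 527 with the mean of library levels and 523 with the mean over CpGs, but only 215 and 203 of the last 2 sets were among the 409. Leaving out 1 library gave between 216 and 1056, and leaving out replicate 1, 2 or 3 of WT, W465A and W465A/W796A together gave 306, 1252 and 671. The mean levels of the members in W796A, W464A/W465A and the triple mutant moved by less than 1 SD under every alternative run. The counts of members called against W796A stayed within 1.5 times except at 10 reads per CpG, where 59 members were measured and 53 (W464A/W465A) and 51 (triple mutant) were called. Leaving out 1 library gave 343 to 398 and 357 to 397 calls. Shares over all tiles are not given for these runs. The counts thus show how far the calls moved and nothing particular to the members. With the replicate number as a block the counts were 390, 386 and 0, as without it. Deviations of same-numbered libraries had r between -0.068 and 0.0985 over tiles in the 3 tested comparisons. Among WT, W465A and W465A/W796A r lay between -0.1643 and 0.1209. For WT and W796A it was 0.2439, 0.2641 and 0.1442, against -0.2825 to 0.0581 between libraries of other numbers. No test between WT and W796A is reported. These values do not settle whether the numbers pair libraries. Adding W796A to W464A/W465A gave 0 calls in members in every alternative run. Depth limits what a single tile shows, since most members rest on fewer than 50 reads in at least 1 library.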

Other observations

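The rule takes autosomes only. On the X chromosome 822 tiles were measured and 173 passed the WT and W465A limits, of which 0 were no more than 5 points below WT in W465A/W796A. Among autosomal tiles past these limits the share was 1.74%, a share at which few of 173 tiles would be found.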
